A study of Mus musculus with 32 samples.

Results

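Thrsp, Mid1ip1, Thra, Thrb and Dio2, genes that join carbohydrate-driven lipogenesis to thyroid hormone action, were followed in brown adipose tissue of refed mice. A probe was taken if the array design names it for one of the 5 genes and if it is in the deposited table, which held for 9 of their 10 probes. They are 5 of the 24523 gene names among the 37306 probes that passed the filter on dim signals, and all 9 were well above background on each of the 32 arrays. The remaining probe, A_55_P2716818 of Thra, was well above background on 0 of 32 arrays.

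The study compared mice without any ChREBP, the glucose-responsive transcription factor encoded by Mlxipl, with mice that lack only its short isoform. Interscapular brown fat of male C57BL6/J mice was hybridised to 1-colour Agilent arrays, 8 per group. Total ChREBP KO mice are Mlxipl-null and lack both isoforms, and ChREBPβ KO mice carry a CRISPR/Cas9 deletion of exon 1b, from which the β isoform starts. The deletions are in all tissues, so brown fat is not the sole site of loss. The other 2 groups are the WT littermates of each line, called total-line WT and ChREBPβ-line WT. Mice of all 4 groups went without food for 24 hours and were then refed for 18 hours with 20% glucose in the water. The age of the mice is not given in the sources used here. The labels number the arrays of a group without naming animals, so p values measure the spread between these samples.

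Thrsp encodes Spot14, a small protein that was named for its rapid rise under thyroid hormone in liver and that promotes fatty acid synthesis. Its gene is a classic target of both triiodothyronine and carbohydrate, the latter through ChREBP. Mid1ip1 encodes the paralogue of Spot14, which binds acetyl-CoA carboxylase, favours its assembly into active filaments and can pair with Spot14. Thra and Thrb encode the nuclear receptors for triiodothyronine. Dio2 encodes the type 2 deiodinase, which makes triiodothyronine from thyroxine inside the brown adipocyte and is induced by noradrenaline through cyclic AMP.

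The tissue and the deletions were checked first. The mean log2 intensity of 8 brown adipocyte markers lay between 14.2 and 15 on the 32 arrays. Single markers moved both ways in total ChREBP KO, where Ppargc1a (1.18), Cox7a1 (0.45) and Cox8b (0.40) were higher and Elovl3 (-3.16) and Prdm16 (-0.29) lower. In ChREBPβ KO Elovl3 was at -1.15 (limma adjusted p 0.144) and Prdm16 at -0.33 (limma adjusted p 0.142). Mlxipl, by its brightest probe, gave a signal reduced 5.57-fold in total ChREBP KO and 2.82-fold in ChREBPβ KO against WT littermates (limma adjusted p 2.06e-24 and 7.47e-17), and signal remained in both. The 2 lines differed in muscle RNA: the mean of 8 skeletal muscle markers ranged from 12.8 to 16.2 on the arrays of the total line and from 6.46 to 12.1 on those of the ChREBPβ line. All 8 muscle markers were lower in ChREBPβ-line WT than in total-line WT, and 0 of 8 were called between KO and WT in either line. Their median difference was -0.06 in total ChREBP KO and -0.73 in ChREBPβ KO. With SEs from 0.22 (Myl1) to 1.45 (Myh4), this does not show equal muscle content. The mean of 8 liver markers ranged from 6.64 to 13.2 within the series, and 1 of 8 was lower in total ChREBP KO. Line, litter and muscle content cannot be told apart in any contrast between the lines. In tissue RNA of this kind, fewer cells of a type and less RNA per cell cannot be told apart either.

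Upstream sequences are shown for the 3 genes whose RNA changed in total ChREBP KO, so that the region in front of each can be read beside its response. Promoters of 4 of the 5 genes were in the RefSeq table (build GRCm38.p6, whereas probe positions below are in mm9), and Thra had none there. Each line gives the 250 bases before the transcription start, 5′ to 3′ on the strand of the gene. Capitals mark matches on either strand to CACGTG (an E-box, the core of carbohydrate response elements), CCAAT, TGACGTCA (a cyclic AMP response element), TATAAA or AGGTCA (a nuclear receptor half-site). No match overlapped another.
Thrsp, chr7:97417551-97417800, minus strand: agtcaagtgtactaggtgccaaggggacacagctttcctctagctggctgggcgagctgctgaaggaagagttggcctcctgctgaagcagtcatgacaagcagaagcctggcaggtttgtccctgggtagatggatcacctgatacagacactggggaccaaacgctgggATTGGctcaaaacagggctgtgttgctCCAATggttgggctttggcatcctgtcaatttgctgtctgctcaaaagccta
Mid1ip1, chrX:10717115-10717364, plus strand: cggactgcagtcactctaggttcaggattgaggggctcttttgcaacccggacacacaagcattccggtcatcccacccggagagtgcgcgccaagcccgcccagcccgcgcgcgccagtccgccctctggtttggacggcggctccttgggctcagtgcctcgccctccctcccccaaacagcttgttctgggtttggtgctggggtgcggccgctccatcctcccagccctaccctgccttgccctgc
Dio2, chr12:90739039-90739288, minus strand: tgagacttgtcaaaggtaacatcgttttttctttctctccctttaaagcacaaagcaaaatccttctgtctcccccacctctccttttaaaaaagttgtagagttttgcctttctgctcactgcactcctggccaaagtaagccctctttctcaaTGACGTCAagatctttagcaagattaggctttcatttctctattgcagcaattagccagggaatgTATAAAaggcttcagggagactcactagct

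The stretch before Thrsp held CCAAT once on each strand, 79 to 75 and 52 to 48 bases before the start. That of Dio2 held the cyclic AMP response element 95 to 88 bases before the start and TATAAA 30 to 25 bases before it. None of the 5 motifs was found before Mid1ip1, where GC content was 66.8%, against 53.6% for Thrsp and 41.6% for Dio2. Of the 2 Thrb entries, 1 held AGGTCA and the other held CACGTG and TATAAA. Among 32851 promoters, CACGTG was found in 6.02%, CCAAT in 33.8%, TGACGTCA in 1.55%, TATAAA in 12.4% and AGGTCA in 14% over the same 250 bases. A match is a string of letters and not a measured site, and elements outside this window were not searched.

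Loss of both isoforms lowered the RNA of Spot14 and of its paralogue and raised that of the deiodinase, while the receptor probes were not called. In total ChREBP KO against WT, 4 of the 9 probes were called at a limma adjusted p under 0.05: both of Thrsp, that of Mid1ip1 and that of Dio2. Over all 37306 probes, 43.2% were called in this comparison, so that the share of member probes was close to the background. The 4 probes were also those whose KO and WT arrays did not overlap, which held for 15.6% of all probes. In ChREBPβ KO against WT only the 2 Thrsp probes were called, where 2.55% of all probes were. That count was 0 without replicate 4 or 5 of ChREBPβ KO, 1 without replicate 8 of ChREBPβ KO or replicate 1, 2 or 3 of ChREBPβ-line WT, and 4 without replicate 7 of ChREBPβ-line WT, when Dio2 and a Thrb probe were called too. Without replicate 6 or 8 of ChREBPβ-line WT A_51_P194099 of Thrsp lost its call and Dio2 gained one. The difference between the KO effects was called for 3 of 9 probes, both of Thrsp and that of Mid1ip1, with 24.1% of all probes called.

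**Figure D1:**
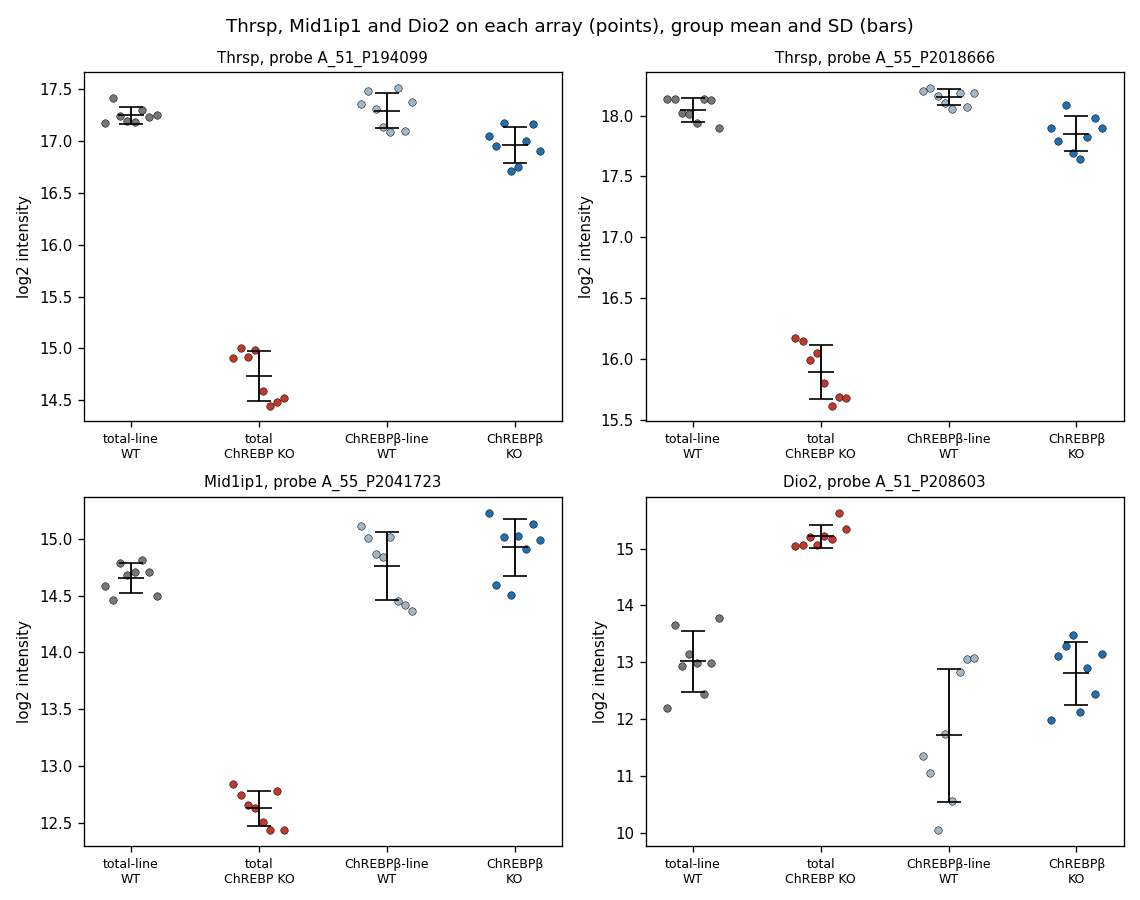
Log2 intensity (vertical axis, quantile normalized) of the 2 Thrsp probes, Mid1ip1 and Dio2 on each of the 8 arrays of the 4 groups (points), with group mean and SD (bars). The total ChREBP KO arrays lie apart from all others, below for Thrsp and Mid1ip1 and above for Dio2, and ChREBPβ-line WT arrays spread from 10.05 to 13.08 for Dio2.

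Thrsp was measured by 2 probes on the minus strand of chromosome 7 (mm9), A_51_P194099 at 104565562 to 104565621 and A_55_P2018666 at 104561649 to 104561708. They lie 3913 bases apart on the chromosome but 397 bases apart on the transcript, so an intron separates them. For A_51_P194099, the log2 intensity had a lowest, median and highest value of 17.17, 17.24 and 17.42 in total-line WT and of 14.45, 14.75 and 15.01 in total ChREBP KO. It had 17.08, 17.34 and 17.51 in ChREBPβ-line WT and 16.71, 16.98 and 17.17 in ChREBPβ KO. Every total ChREBP KO array was at least 2.17 log2 units below every total-line WT array, whereas ChREBPβ KO and WT arrays overlapped by a margin of 0.09. Every ChREBPβ KO array was brighter for Thrsp than every total ChREBP KO array.

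In total ChREBP KO the log2 difference of Thrsp was -2.52 ± 0.09 (SE, n = 8 against 8) on A_51_P194099, which is 5.73-fold lower (limma adjusted p 2.58e-21). In ChREBPβ KO it was -0.33 ± 0.09, or 1.26-fold lower (limma adjusted p 0.0295), with all 8 KO arrays below the WT mean and 6 of 8 below every WT array. The KO effects differed by 2.19 (95% interval 1.94 to 2.44, limma adjusted p 4.61e-15). The WT groups differed by 0.04 (95% interval -0.13 to 0.22, limma adjusted p 0.717). In order of mean level Thrsp was highest in ChREBPβ-line WT, then total-line WT, ChREBPβ KO and total ChREBP KO, and both WT groups lay within each other's spread.

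The other Thrsp probe, A_55_P2018666, gave the same order. Its lowest, median and highest values were 17.89, 18.07 and 18.14 in total-line WT and 15.62, 15.9 and 16.18 in total ChREBP KO, with no overlap. They were 18.05, 18.18 and 18.22 in ChREBPβ-line WT and 17.64, 17.86 and 18.09 in ChREBPβ KO, where 7 of 8 KO arrays lay below all WT arrays. The differences were -2.16 ± 0.07 (SE, 4.46-fold lower, limma adjusted p 2.26e-21) in total ChREBP KO and -0.30 ± 0.07 (1.23-fold lower, limma adjusted p 0.0202) in ChREBPβ KO. Outside total ChREBP KO this probe ranked between 27 and 98 among all probes of an array in brightness. At this bright end quantile normalization gave some arrays the same value. The 8 arrays of total-line WT held 6 distinct values, and those of each ChREBPβ-line group held 7.

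The decrease of Thrsp in ChREBPβ KO was near the threshold, and Thrsp is not in the paper's list of genes regulated in this comparison. That list is far shorter than the 662 genes called here, so most genes called here cannot be in it. With slide as a fixed block the limma adjusted p was 0.475 on A_51_P194099 and 0.391 on A_55_P2018666, and with median intensity scaled to its 75th percentile it was 0.0602 and 0.14. Without replicate 4 or without replicate 5 of ChREBPβ KO neither Thrsp probe was called, at adjusted p values of up to 0.0765 and 0.0525, and A_51_P194099 lost its call on leaving out any 1 of 8 arrays, all of the ChREBPβ line. Its direction was kept within each of the 4 wash batches, from -0.60 to -0.15 and from -0.43 to -0.22.

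Mid1ip1 fell in total ChREBP KO and was not called in ChREBPβ KO. Its probe, A_55_P2041723 on chromosome X at 10296703 to 10296762 (mm9, plus strand), had a lowest, median and highest log2 intensity of 14.46, 14.69 and 14.82 in total-line WT and of 12.43, 12.64 and 12.84 in total ChREBP KO. The values were 14.37, 14.85 and 15.12 in ChREBPβ-line WT and 14.51, 15.01 and 15.23 in ChREBPβ KO. All total ChREBP KO arrays lay at least 1.62 below their WT arrays, and the ranges of the ChREBPβ line overlapped almost entirely.

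The log2 difference of Mid1ip1 was -2.03 ± 0.11 (SE, n = 8 against 8) in total ChREBP KO, 4.09-fold lower (limma adjusted p 2.07e-16). In ChREBPβ KO it was 0.17, with a 95% interval from -0.05 to 0.39 (limma adjusted p 0.548). The difference between the KO effects was 2.20 ± 0.15 (limma adjusted p 7.64e-13). The 2 WT groups differed by 0.10 (95% interval -0.12 to 0.32, limma adjusted p 0.475). In order of mean level Mid1ip1 was highest in ChREBPβ KO (14.93), then ChREBPβ-line WT (14.76), total-line WT (14.66) and total ChREBP KO (12.63). The neighbours among the first 3 were not called, and ChREBPβ KO was not tested against total-line WT.

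**Figure D2:**
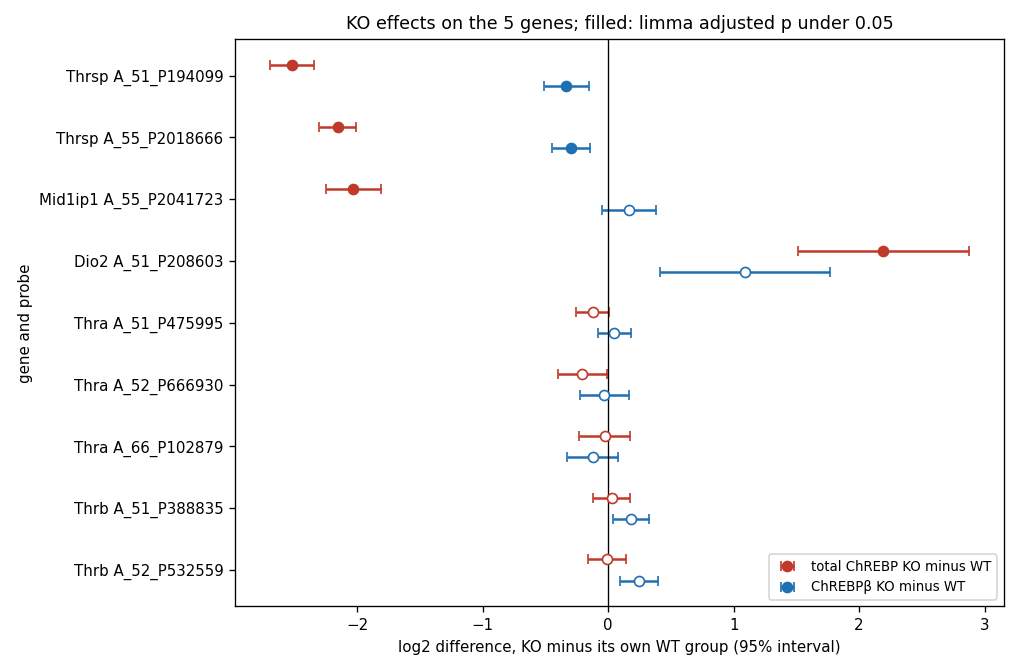
Log2 difference of each KO group from its own WT group (horizontal axis) with its 95% interval for the 9 probes of the 5 genes (vertical axis), filled where the limma adjusted p was under 0.05. Thrsp and Mid1ip1 lie between -2.52 and -2.03 in total ChREBP KO and Dio2 at 2.19, and the values of these 3 genes in ChREBPβ KO lie nearer 0, between -0.33 and 1.09.

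Dio2 moved the other way and varied widely between arrays. Its probe, A_51_P208603 on chromosome 12 at 91963235 to 91963294 (mm9, minus strand), had a lowest, median and highest log2 intensity of 12.2, 12.99 and 13.78 in total-line WT and of 15.04, 15.18 and 15.62 in total ChREBP KO. It had 10.05, 11.55 and 13.08 in ChREBPβ-line WT and 11.99, 13 and 13.48 in ChREBPβ KO. Every total ChREBP KO array was at least 1.25 above every total-line WT array. In the ChREBPβ line 4 of 8 KO arrays lay above all WT arrays and the ranges overlapped.

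The log2 difference of Dio2 was 2.19 ± 0.33 (SE, n = 8 against 8) in total ChREBP KO, 4.58-fold higher (limma adjusted p 2.38e-06). In ChREBPβ KO it was 1.09 ± 0.33, 2.13-fold, with a 95% interval from 0.41 to 1.77, and it missed the threshold (limma adjusted p 0.076) although no KO array fell below the mean of its WT group. The KO effects differed by -1.10 (95% interval -2.07 to -0.14, limma adjusted p 0.089), so the difference itself also missed the threshold. Without replicate 3 or 5 of ChREBPβ-line WT, or with muscle and liver list means as covariates, it was called, at -1.34, -1.27 and -1.27 (limma adjusted p 0.0218, 0.043 and 0.0274). Between the WT groups, where 39.2% of all probes were called, Dio2 was 1.30 lower in the ChREBPβ line (-1.30, limma adjusted p 0.00235). That difference was -2.57 with muscle and liver list means as covariates and ran from -2.28 to 0.46 within single wash batches. Total ChREBP KO therefore held the highest Dio2 level and ChREBPβ-line WT the lowest mean, while total-line WT and ChREBPβ KO, at 13.02 ± 0.54 and 12.81 ± 0.55 (SD, n = 8), lay within each other's spread.

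ChREBPβ-line WT arrays of Dio2 fell on both sides of a gap: 5 arrays lay between 10.05 and 11.74, and replicates 6, 7 and 8 lay between 12.84 and 13.08. The SD of this group was 1.17, against 0.20 in total ChREBP KO. Without replicate 6, 7 or 8 the increase in ChREBPβ KO was called, at a limma adjusted p down to 0.0215. Fitting slides as fixed blocks raised it to 1.75 (limma adjusted p 0.0332), and with slide as a random block it was 1.17 and was called too (limma adjusted p 0.0454). Within single wash batches it ran from -0.49 to 2.15, with 1 to 3 arrays per group in a batch. In total ChREBP KO the increase ran from 1.90 to 2.66 over the wash batches and from 2.08 to 2.67 over the alternative settings.

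The receptor genes were not called in either KO by limma, and at an unadjusted p under 0.05 were 1 of their 5 probes in total ChREBP KO, against 49.8% of all probes, and 2 in ChREBPβ KO, against 13.6%. Thra was measured by 3 probes on chromosome 11 (mm9, plus strand). The brightest, A_51_P475995 at 98626356 to 98626415, had a lowest, median and highest log2 intensity of 12.09, 12.27 and 12.58 in total-line WT, 12.01, 12.18 and 12.26 in total ChREBP KO, 12.45, 12.64 and 12.73 in ChREBPβ-line WT and 12.4, 12.72 and 12.79 in ChREBPβ KO. KO and WT arrays overlapped in both lines, whereas the lines stood apart from each other in all but a few arrays. The differences were -0.12 (95% interval -0.25 to 0.01, limma adjusted p 0.131) in total ChREBP KO and 0.05 (95% interval -0.08 to 0.18, limma adjusted p 0.831) in ChREBPβ KO.

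Of the other Thra probes, A_52_P666930 lies 714 bases upstream of the brightest and A_66_P102879 at 98617475 to 98618281 spans an intron. A_52_P666930 gave -0.20 (limma adjusted p 0.0853) in total ChREBP KO and -0.03 (limma adjusted p 0.95) in ChREBPβ KO, and A_66_P102879 gave -0.03 and -0.12 (limma adjusted p 0.851 and 0.677). With intensities scaled to their 75th percentile, the decrease on the brightest Thra probe was called in total ChREBP KO, at -0.17 (limma adjusted p 0.0278) for the processed signal. Between the WT groups Thra was higher in the ChREBPβ line on A_51_P475995, by 0.32 (limma adjusted p 0.000158), and on A_66_P102879, by 0.25 (limma adjusted p 0.0432), but not on A_52_P666930, at 0.06 (limma adjusted p 0.685). The call of A_66_P102879 was lost on leaving out any 1 of 10 of the 32 arrays and in 5 of 14 settings. A_52_P666930 was called in total ChREBP KO without replicate 2 or 4 of total-line WT.

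Nr1d1, the circadian repressor whose gene overlaps the Thra locus on the opposite strand, rose by 0.68 ± 0.19 (SE, limma adjusted p 0.00338) when both isoforms were lost. All 8 KO arrays were above the WT mean. In ChREBPβ KO it gave 0.21 (limma adjusted p 0.715).

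Thrb was measured by 2 probes on chromosome 14 (mm9, plus strand), 2579 bases apart. The brighter, A_52_P532559 at 18868800 to 18868859, had a lowest, median and highest log2 intensity of 9.27, 9.52 and 9.96 in total-line WT, 9.42, 9.49 and 9.71 in total ChREBP KO, 9.29, 9.46 and 9.73 in ChREBPβ-line WT and 9.60, 9.72 and 9.82 in ChREBPβ KO. The total line did not separate by genotype, and in the ChREBPβ line 4 of 8 KO arrays lay above all WT arrays. The differences were -0.01 (95% interval -0.16 to 0.14, limma adjusted p 0.935) in total ChREBP KO and 0.24 (95% interval 0.09 to 0.40, limma adjusted p 0.0731) in ChREBPβ KO, where all 8 KO arrays were above the mean of WT. Without replicate 7 or 8 of ChREBPβ-line WT or replicate 4 of total-line WT it was called, at a limma adjusted p down to 0.0295.

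The dimmer Thrb probe, A_51_P388835 at 18866221 to 18866280, gave 0.03 (limma adjusted p 0.788) and 0.18 (limma adjusted p 0.201), again with 8 of 8 ChREBPβ KO arrays above the WT mean. It was 0.30 lower in ChREBPβ-line WT than in total-line WT (-0.30, limma adjusted p 0.00103), where A_52_P532559 gave -0.07 (limma adjusted p 0.507). Between the KO effects, Thrb differed by 0.25 on the brighter probe (limma adjusted p 0.0781) and by 0.15 on the dimmer (limma adjusted p 0.291). The former was called with slide as a fixed or a random block, at 0.37 and 0.27 (limma adjusted p 0.039 and 0.0489), with array weights (limma adjusted p 0.0475), and without replicate 8 of ChREBPβ-line WT or replicate 1 or 6 of total-line WT (limma adjusted p down to 0.0366).

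**Figure D3:**
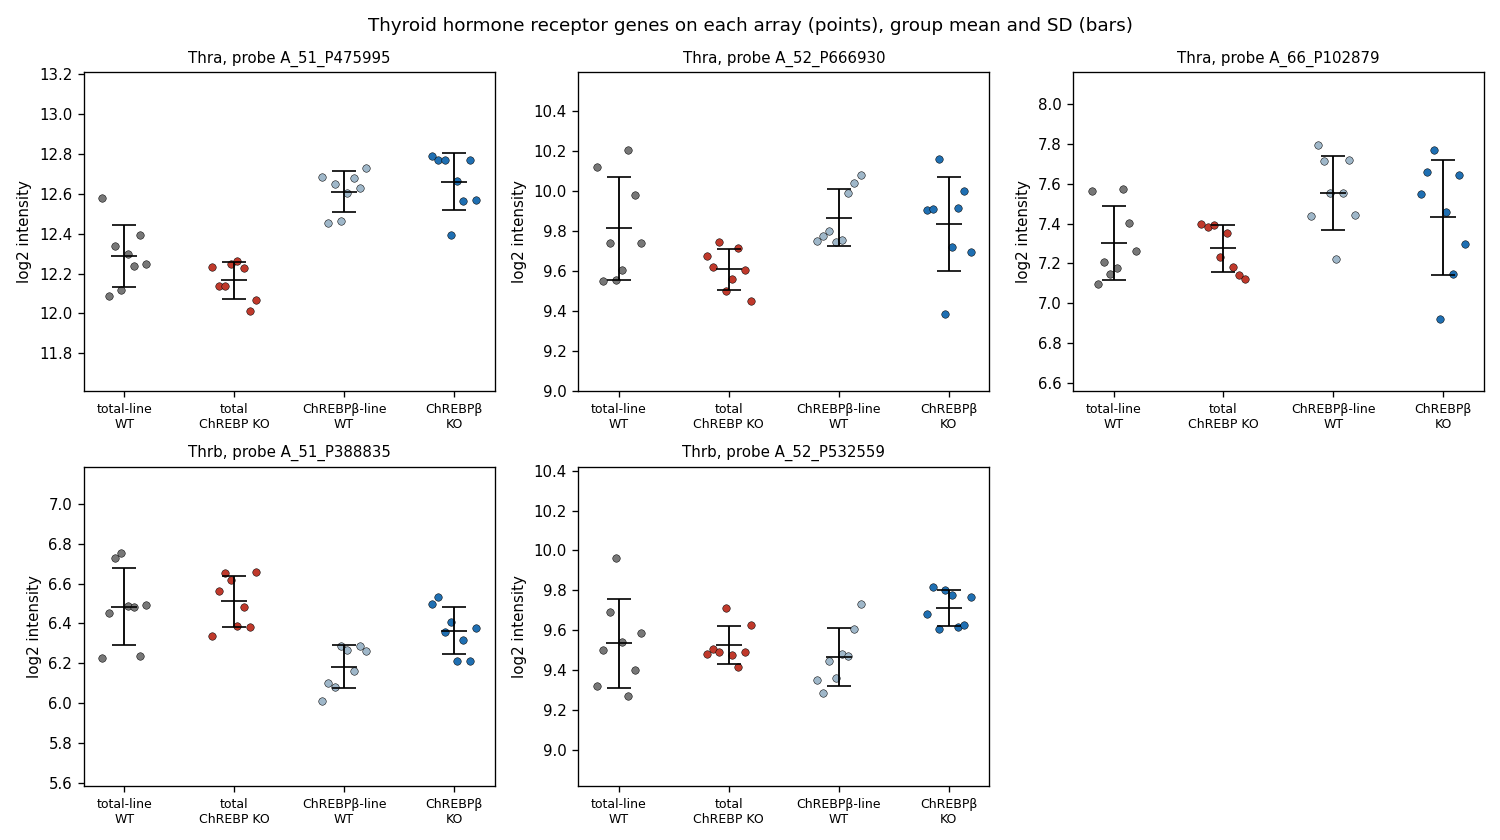
Log2 intensity (vertical axis) of the 3 Thra and 2 Thrb probes on each of the 8 arrays of the 4 groups (points), with group mean and SD (bars). KO and WT arrays of a line overlap in every panel, and the brightest Thra probe is higher in the ChREBPβ line, with group means of 12.61 and 12.66 against 12.29 and 12.17.

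Of 10 genes that carry thyroid hormone, convert it or act upstream of it, 9 were measured (Serpina7 was not). In total ChREBP KO 4 rose and 0 fell, with a median log2 difference of -0.01, against 23.0% of all genes higher, 21.1% lower and a median of 0.01 over all genes. Of the 4, Slc16a10 (0.355, limma adjusted p 0.02) lost its call with slide as a fixed block (limma adjusted p 0.152) and without replicate 1 of total-line WT. Crym was called lower without replicate 8 of total-line WT. The largest increases in the list were those of Slc7a8, which encodes a carrier of amino acids and thyroid hormone, at 2.47 ± 0.11 (SE, limma adjusted p 3.71e-18), Tshr, the receptor for thyrotropin, at 0.61, and Dio1, a deiodinase that activates the hormone, at 0.50. Tshr and Dio1 were dim, with group means of log2 intensity from 5.75 to 6.76, against 11.72 to 15.21 for Dio2. Slc7a8 was as dim outside total ChREBP KO, at 6.356 in total-line WT, 6.245 in ChREBPβ-line WT and 6.644 in ChREBPβ KO. Its mean in total ChREBP KO was 8.824. In ChREBPβ KO 1 of 9 rose, Slc7a8 by 0.40 (limma adjusted p 0.0455), and 0 fell, with 1.37% of all genes higher and 1.33% lower. That call of Slc7a8 was lost in 6 of the 13 alternative settings, at an adjusted p of up to 0.381, and on leaving out any 1 of 19 of the 32 arrays.

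Receptor partners and coregulators were all measured, 16 in number. In total ChREBP KO 6 rose and 0 fell, with a median of 0.11, beside 23.0% and 21.1% of all genes. Of the 6, Ncor1 (0.16, limma adjusted p 0.0201) lost its call in 3 of 14 settings. With intensities scaled to their 75th percentile, Rxra was called lower in 2 settings (limma adjusted p down to 0.00974) and Med1 in 1 (limma adjusted p 0.0379). Rxrb and Gps2 were called higher with array weights and without some single arrays, and Ncoa6 without replicate 8 of total-line WT. Thrap3, at -0.12 (limma adjusted p 0.0655), was called lower in 6 of 14 settings, the deposited table among them, and without replicate 1 of total ChREBP KO or replicate 4 or 7 of total-line WT. Tbl1xr1 and Tbl1x, subunits of the corepressor complex that unliganded receptors recruit, rose by 1.02 and 0.55, and Nrip1, a corepressor of nuclear receptors in adipocytes, rose by 0.66 (limma adjusted p 2.74e-14, 9.74e-07 and 0.000119). In ChREBPβ KO, where 1.37% of all genes rose and 1.33% fell, 1 of these 16 rose and 0 fell. That was Rxrg, which encodes a dimer partner of the receptors, with 0.31 ± 0.06 (SE, limma adjusted p 0.00416), beside 0.29 in total ChREBP KO (limma adjusted p 0.000312). In the ChREBPβ line its call was lost with slide as a fixed block (limma adjusted p 0.179). Tbl1x, at 0.26 there, was called with slide as a random block and without replicate 6 of ChREBPβ KO or replicate 6 of total-line WT.

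Genes known to induce Dio2 or to turn over its protein were all measured. Of these 12, 1 rose and 0 fell in total ChREBP KO, against 23.0% and 21.1% of all genes, with a median of 0.02. The ubiquitin pathway genes March6 and Usp20, at -0.12 and -0.14 (limma adjusted p 0.0828 and 0.121), were called lower in 3 of 14 settings each, and March6 also without replicate 4 of total-line WT. Adcy3, an adenylate cyclase of brown fat, rose by 0.56 ± 0.13 (SE, limma adjusted p 0.000625). In ChREBPβ KO the β3-adrenergic receptor gene Adrb3 rose by 0.55 (limma adjusted p 0.0465), while 0 of 12 fell, against 1.37% of all genes higher and 1.33% lower. Wsb1 was called too without replicate 5 of ChREBPβ-line WT. The call of Adrb3 was lost in 8 of 14 alternative settings, the deposited table among them, and on leaving out any 1 of 23 of the 32 arrays. Adrb3 in total ChREBP KO gave -0.03 (limma adjusted p 0.883). The paper also lists Adrb3 as upregulated in brown fat of ChREBPβ KO and not of total ChREBP KO.

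Genes known as thyroid hormone targets moved in both directions in total ChREBP KO. Of 13 measured, 5 rose, 5 fell and 3 were not called, with a median of -0.09, where 23.0% of all genes rose and 21.1% fell. The rises were led by Ppargc1a, a coactivator of mitochondrial biogenesis, at 1.18, Pck1, which serves glyceroneogenesis in fat, at 1.03, and the transcription factor gene Klf9 at 0.86 (limma adjusted p 2.27e-06, 2.01e-06 and 2.27e-10). The falls were led by lipogenic enzymes, Acaca (acetyl-CoA carboxylase) at -3.49, Me1 (malic enzyme) at -2.56 and Fasn (fatty acid synthase) at -1.80 (limma adjusted p 5.66e-26, 1.28e-17 and 6.43e-17). Those not called were Ucp1, which encodes the uncoupling protein of brown fat, at -0.09 (limma adjusted p 0.108), Hr at -0.26 and the muscle-enriched Atp2a1 at 0.10. All arrays had Ucp1 between 18.22 and 18.62, at the bright end, where differences may be understated. Ucp1 was called lower with the deposited table (limma adjusted p 0.0323) and without replicate 8 of total-line WT (limma adjusted p 0.0287), and its value was positive, at 0.10 and 0.07, with processed signal or median intensity scaled to the 75th percentile. In ChREBPβ KO limma called 0 of 13 in either direction, with a median of 0.08, where 1.37% of all genes rose and 1.33% fell. At an unadjusted p under 0.05, 5 of 13 were higher and 2 lower, against 6.89% and 7.23% of all genes. Without replicate 7 of ChREBPβ-line WT 2 rose, Klf9 and Atp2a2, and 1 fell, Me1, and without replicate 8 Klf9 rose. Atp2a2 was also called with normexp background correction and with probes that pass the filter on all arrays.

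Among 8 measured of 9 regulators of Thrsp transcription (Nr1i2 was not), 1 rose and 4 fell in total ChREBP KO, with a median of -0.20, where 23.0% of all genes rose and 21.1% fell. Beside Mlxipl, Srebf1, the gene of the insulin-responsive lipogenic factor, fell by 1.04, and Mlx, the obligate dimer partner of ChREBP, fell by 0.70 (limma adjusted p 6.38e-10 and 3.25e-07). Nr1h3, a liver X receptor gene, rose by 0.41 (limma adjusted p 1.43e-06). In ChREBPβ KO the targeted gene Mlxipl fell and 7 of 8 were not called, where 1.37% of all genes rose and 1.33% fell.

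Of 8 genes of acetyl-CoA carboxylase and fatty acid synthesis, 3 of which are also in the target list, 7 fell and 1 rose in total ChREBP KO, with a median of -2.14, against 21.1% and 23.0% of all genes. Acly, which makes cytosolic acetyl-CoA, fell by 3.57 (limma adjusted p 3.54e-25), beside Acaca and Me1 given above. The gene that rose was Mid1, which encodes the microtubule protein that the Mid1ip1 product binds, by 0.30 (limma adjusted p 0.0181), a call that was lost with the processed signal scaled (limma adjusted p 0.0541). In ChREBPβ KO limma called 0 of 8, against 1.37% of all genes higher and 1.33% lower. The median was -0.16, with Acly at -0.14 (limma adjusted p 0.561). At an unadjusted p under 0.05, 4 were lower, against 7.23% of all genes. Without replicate 7 of ChREBPβ-line WT Me1 and Acacb fell. Fasn gave 0.01 (limma adjusted p 0.982). All its arrays outside total ChREBP KO lay between 18.8 and 18.85, at the bright end, where differences may be understated. By PCR and Western blot, the paper reports impaired lipogenic mRNA and protein in refed ChREBPβ-deficient mice, chiefly in brown fat.

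**Figure D4:**
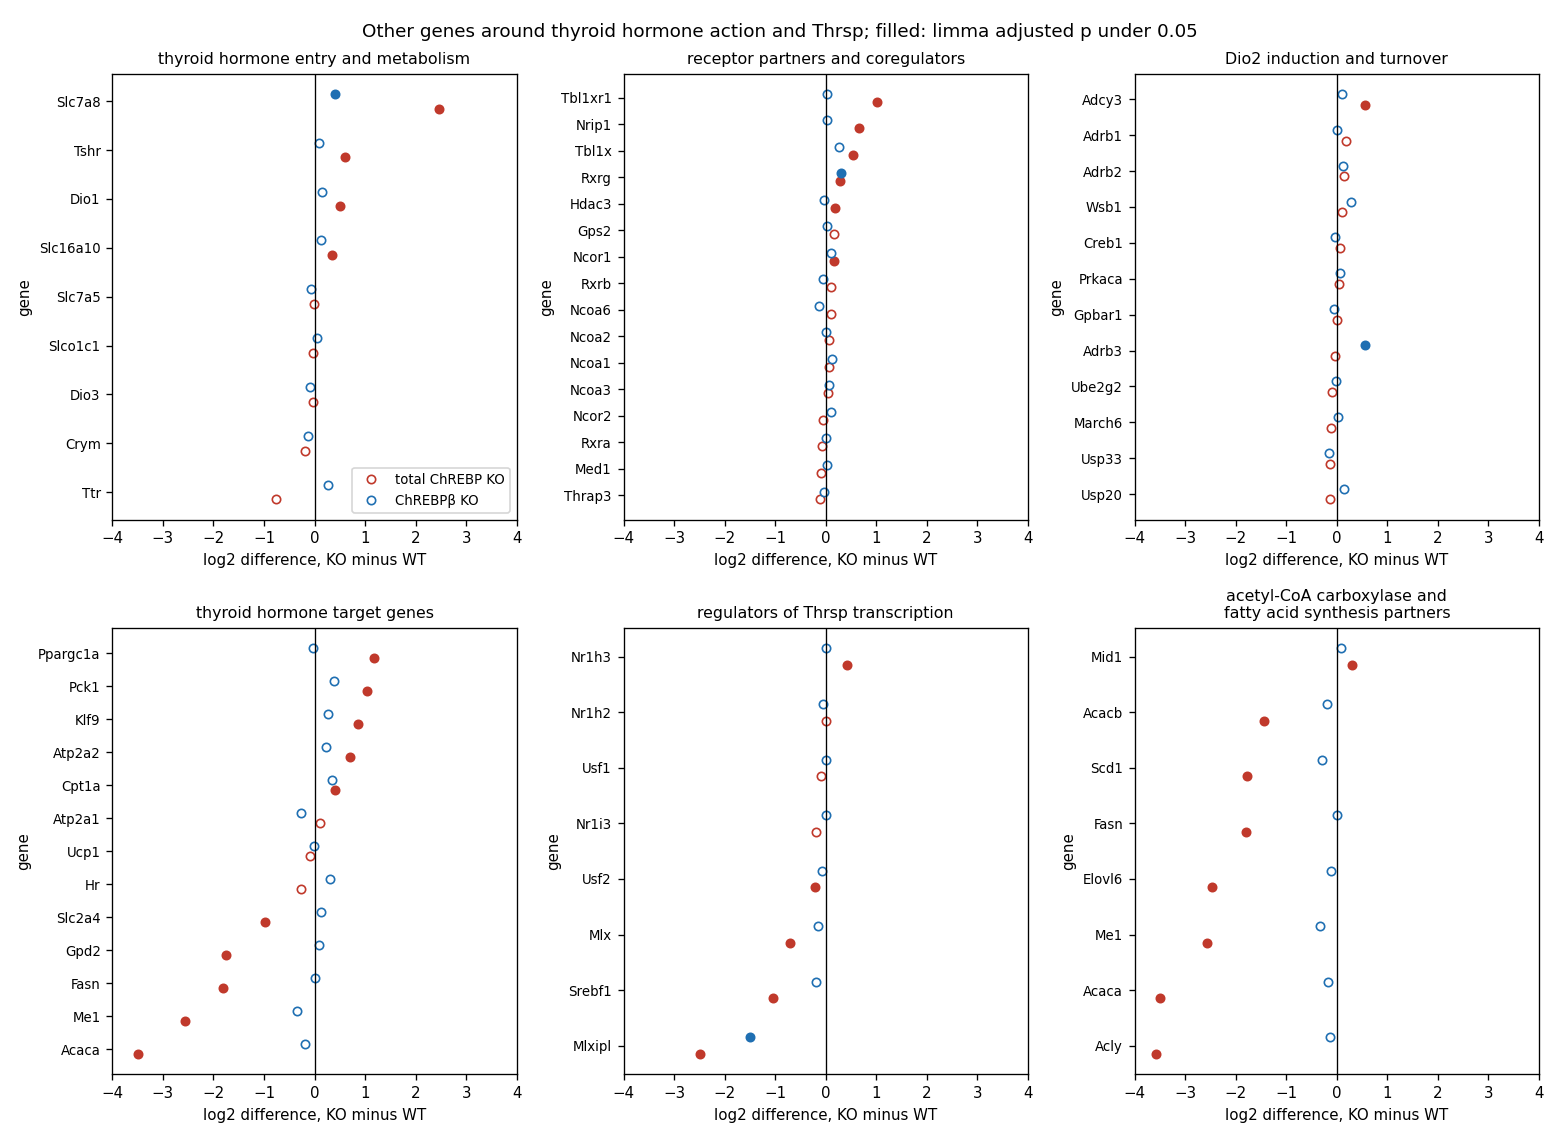
Log2 difference of KO from WT (horizontal axis) for each measured gene (vertical axis) of the 6 lists, total ChREBP KO and ChREBPβ KO side by side, filled where the limma adjusted p was under 0.05. Filled points of ChREBPβ KO are Slc7a8, Rxrg, Adrb3 and Mlxipl, and lipogenic genes reach -3.57 in total ChREBP KO.

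Over the 32 arrays, the gene whose signal was most like that of Thrsp was Acly, with a Pearson correlation of 0.99 and, after each group's mean was removed, of 0.77. Dixdc1, Tkt, Hk2 and Acaca followed at 0.99, with 0.39 to 0.53 within groups. Mid1ip1 was most like Haus3 (0.98, within groups 0.77), then Atp4b, Pdk1, Lpin1 and Slc2a5. These correlations are over arrays that share the separation of total ChREBP KO from the other groups, and they describe the arrays without a test. Thrsp and Mid1ip1 themselves correlated at 0.96 over all arrays and at 0.35 within groups.

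Dio2 was most like Ccrn4l, the gene of the circadian protein nocturnin, with 0.94 over the 32 arrays and 0.85 within groups. Gyk, Hspd1, Pnrc1 and Foxo1 came next (0.91 to 0.92, within groups 0.58 to 0.71). In ChREBPβ-line WT, replicates 6, 7 and 8 were the 3 highest arrays for both Dio2 and Ccrn4l and the 3 lowest for Mid1ip1. Ccrn4l was picked for its correlation with Dio2 over these same arrays, so the order it shares with Dio2 is no separate observation. Mid1ip1 and Dio2 correlated at -0.87 over all arrays and at -0.71 within groups, and by group at -0.60 in total-line WT, -0.06 in total ChREBP KO, -0.85 in ChREBPβ-line WT and -0.73 in ChREBPβ KO (n = 8 each). Thrsp and Dio2 correlated at -0.84 over all arrays and at -0.12 within groups. With the marker lists, Dio2 gave -0.47 for muscle and 0.11 for liver within groups, and Mid1ip1 gave 0.34 and -0.24.

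**Figure D5:**
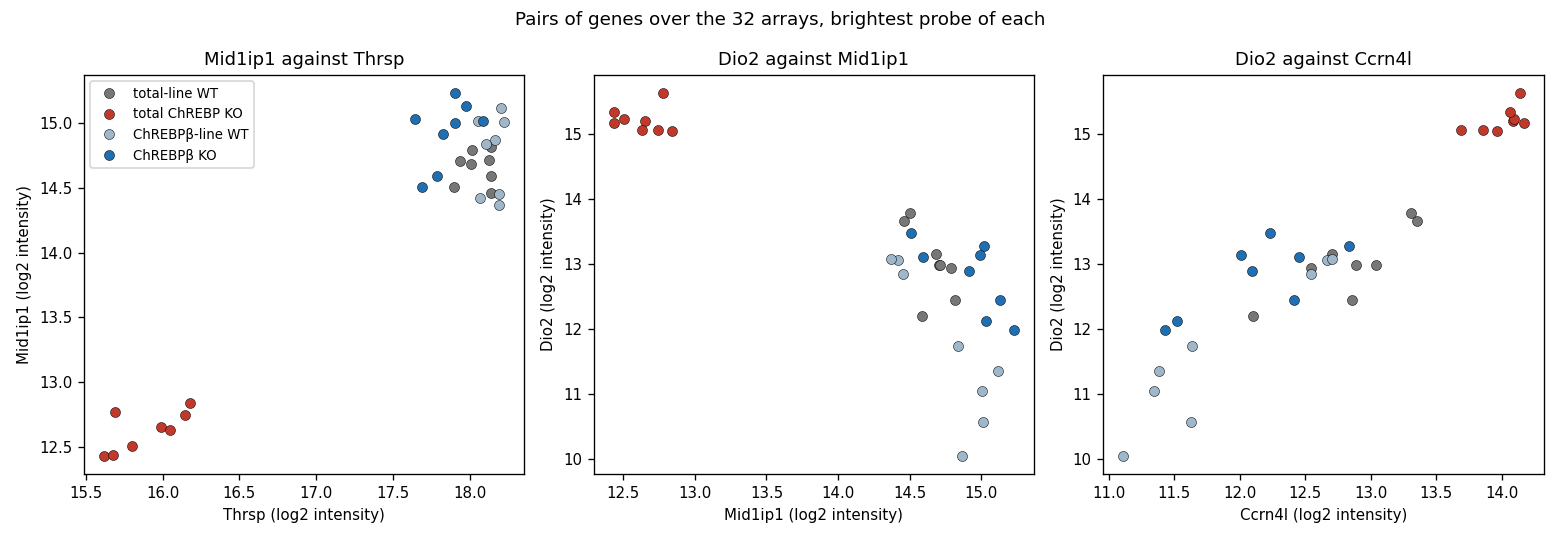
Log2 intensity of 2 genes against each other over the 32 arrays, Mid1ip1 against Thrsp, Dio2 against Mid1ip1 and Dio2 against Ccrn4l, each by its brightest probe and coloured by group. The total ChREBP KO arrays form a cluster of their own in the 3 panels, and Dio2 falls as Mid1ip1 rises within 3 of the 4 groups.

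Thra was most like Ankrd27 (0.90, within groups 0.47) and then like Rnf4, Slc16a11, Slc1a5 and Stoml1. Thrb was most like Btg3 (0.68, within groups 0.63), then Rock1, Ebf1, Mapt and Pigm, and its closest match was thus weaker than that of the other 4 genes. Within groups, the 2 Thrsp probes correlated at 0.86, the 3 Thra probes at 0.56 to 0.71 and the 2 Thrb probes at 0.66. Over all 32 arrays the values were 0.997 for Thrsp, 0.619 to 0.715 for Thra and 0.463 for Thrb. The probes of Thra and of Thrb thus followed each other only in part.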

How the data were processed

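Per the labels, RNA of 32 samples was labelled with Cy3, 1 sample per array. The scanner files deposited by the authors come from Agilent Feature Extraction 10.10.1.1 and give, per spot, a median intensity over its pixels that was not normalized between arrays, with mm9 coordinates. The authors also deposited a log2 table (filter on dim spots, quantile normalization, 1 median per replicated probe). It has 48 empty cells.

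The study's spot filter and normalization were repeated from the intensities. Spots had to be found, positive and well above background, either on 26 or more arrays or on 6 or more of 1 group, which left 39985 of 59305. Values were quantile normalized and log2 transformed, and differed from the deposited table by 0.0113 on average. Arrays have no read depth, and their number limits the precision. The share of spots well above background ran from 64.4% to 71.1% over the arrays, with 0 saturated. No pair of arrays had identical intensities.

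Each probe was fitted with limma 3.58.1 in R 4.3.3 (lmFit and eBayes, 4 group means, no covariate, all 32 arrays). Contrasts were each KO against its WT group, the difference between the KO effects, and the WT groups of both lines. Two-sided p values were adjusted by Benjamini-Hochberg over the whole of the probes, and calls were made under 0.05. The fit was tested on simulated data with independent noise and no slide or batch effect. In ChREBPβ KO against WT, it called 45% of probes changed by 0.3 log2 units and 99% of those changed by 1. A difference near 0.3 can thus be missed.

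For each list gene the brightest probe was used. An item of the list on thyroid hormone entry and metabolism is not reported here and was left out of its counts. The members and lists were chosen with earlier results of these data known. Genes named in the text are all members, up to 3 called genes with the largest rise and fall per list and contrast, Mlxipl, Nr1d1 and the 5 most alike symbols per member. Chosen after their values were seen, some genes not called are also named, as are some genes whose call changed with a setting or a left-out array. Not every such gene is named. Brown adipocyte markers were named in the same way, and Rxrg and Adrb3 are named in both lines.

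Alternatives were processed signal or median intensity scaled to the 75th percentile, normexp (offset 50), the deposited table, no filter on dim probes, all arrays above background, wash batch, slide or replicate number as a block, the compared groups only, array weights, marker covariates, other moderation, the mean over probes and leaving out each array.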

Additional observations from a re-analysis of the deposited data

Results flagged for a closer look

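The KO effects of the 2 lines differed by test for 3 probes. For Thrsp, the effect in ChREBPβ KO minus that in total ChREBP KO was 2.19 on A_51_P194099 and 1.86 on A_55_P2018666 (limma adjusted p 4.61e-15 for both), where both lines fell, by 2.52 against 0.33 and by 2.16 against 0.30. For Mid1ip1 it was 2.2 (limma adjusted p 7.64e-13), where total ChREBP KO fell and ChREBPβ KO was not called. The ChREBPβ line also had the lower muscle marker signal in both its groups, and the part of that in these differences was not tested beyond the fit with marker lists as covariates, under which both Thrsp probes and Mid1ip1 were still called. In none of the 36 groups of 8 arrays (9 probes, 4 groups) did a single array lie far from the others.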

How the results depend on the processing

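Of the 9 probes, the 4 called in total ChREBP KO (Thrsp, Mid1ip1, Dio2) and the 3 called for the difference between the KO effects (Thrsp, Mid1ip1) kept their direction and their call under every alternative that measured them and without any single array. The 2 calls in ChREBPβ KO, both of Thrsp, became 1 with the processed signal scaled, with a fixed block for wash batch, with only the groups compared, and with probes that pass the spot filter on all arrays, which A_55_P2018666 does not. It became 0 with the median intensity scaled. With slide as a fixed block neither Thrsp probe was called and Dio2 was, which makes 1. It became 3 with slide as a random block, which added Dio2, and the count for the difference between the KO effects became 4, with Thrb. Leaving out single arrays gave 0 to 4. Over all genes, 662 were called in ChREBPβ KO, 107 with slide as a fixed block, 337 with only the groups compared and 472 to 1068 without single arrays, the highest without replicate 5 of ChREBPβ-line WT. Between the WT groups 9539 genes were called, 6156 with probes that pass the filter on all arrays, where fewer genes were tested and 2 rather than 4 of the 9 probes were called, and 3352 with muscle and liver list means as covariates. Other causes were not tested. Deviations of same-numbered KO and WT arrays correlated at -0.308 to 0.093 in the total line, over 0.1 in 0 of 8 pairs. In the ChREBPβ line they correlated at -0.265 to 0.582, over 0.1 in 6 of 8, so same-numbered arrays may share structure there. The labels do not state a pairing, and the main fit did not use the numbers to pair the samples. With the replicate block the counts over all genes were 10953 in total ChREBP KO (10812 without it) and 733 in ChREBPβ KO. With it A_52_P666930 of Thra (total ChREBP KO, -0.20, limma adjusted p 0.0375) and A_52_P532559 of Thrb (ChREBPβ KO, 0.24, limma adjusted p 0.047) were called in addition, as were Klf9, Atp2a2 and Tbl1x in ChREBPβ KO and Thrap3 in total ChREBP KO, and no call of the 9 probes was lost. In all, 1 of 16 KO arrays correlated best with the WT array of its own number. The mean over probes was tried for genes with several probes. The number of arrays limits what can be told apart. So does the bright end for A_55_P2018666 of Thrsp, Fasn and Ucp1, where different arrays can be given the same value.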
